A study of Mus musculus with 4 samples.

Results

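The 10 genes described here, H19, Meg3, Rian, Mirg, Dlk1, Peg3, Plagl1, Mest, Ndn and Peg10, are imprinted genes of fetal and placental growth. They were taken by symbol, by a rule that uses no measured value, from the 54021 gene symbols of a read count table made from reconstituted ovaries (rOvaries). Each rOvary had grown for 1 month under the kidney capsule of a mouse from an aggregate of primordial germ cells and gonadal somatic cells of mid-gestation fetuses, stated in the methods to be taken from female gonads, from mothers of the C57BL/6 strain mated to males that carry C57BL/6-actin-GFP. All recipients, treated and control alike, were bilaterally ovariectomized females of 2 to 3 months of age on the C57BL/6 background and belonged to generation 2 of telomerase-deficient mice (G2 Terc−/−), so every value carries that deletion in the host and not in the donor cells. In 1 group the recipients drank water with INK128, an inhibitor of the kinase mTOR in both of its complexes, at 0.75 µM per g of mouse as the labels put it, and in the other group they received none. There were 2 libraries a group, INK128 replicates 1 and 2 and control replicates 1 and 3. No source used here says whether the libraries of a group came from separate recipients, so p-values measure the spread between these libraries, which may in part be technical. The grafts can hold donor germ cells, donor somatic cells and host kidney, vessels and immune cells, and in such mixed tissue fewer cells of a type and less RNA per cell cannot be told apart.

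An imprinted gene is read from 1 parental chromosome only, according to DNA methylation laid down in the egg or the sperm, and the genes lie in clusters in which a long noncoding RNA of the maternal or paternal copy often neighbours protein genes of the opposite copy. In germ cells the parental marks are erased in the fetus and set again later, in females while oocytes grow. Many of these genes are highly expressed in fetal mesenchyme, placenta and gonad and decline after birth, and the transcription factor Plagl1 has been described as a regulator within such a network of imprinted growth genes. Counts per gene carry no information on the parental chromosome, so imprinting itself was not measured.

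Of the 10 members, 4 are noncoding RNAs expressed from the maternal chromosome (H19, Meg3, Rian and Mirg), and 6 encode proteins and are expressed from the paternal one (Dlk1, Peg3, Plagl1, Mest, Ndn and Peg10). On mm10 with GENCODE release M21 annotation, 4 members (Dlk1, Meg3, Rian and Mirg) share a stretch of 297 kb on chromosome 12. H19, Peg3 and Ndn lie in 3 separate domains of chromosome 7. Mest and Peg10 lie in separate domains of chromosome 6, and Plagl1 lies on chromosome 10.

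RefSeq promoter windows (GRCm38.p6, from 250 bases before to 50 bases after an annotated start) were matched by symbol, and 8 of the 10 members had 11 windows. The windows printed for Ndn and Plagl1 lie inside the GENCODE extents of these genes given below, not at their first base. The windows are printed in the direction of transcription for Meg3 and Ndn, higher in both INK128 libraries than in both controls, for Plagl1, lower in both, and for Peg3, a window that holds the core of the motif read by the Plagl1 protein. Capitals mark a motif found on either strand, which is TATAAA in the Meg3 window and GGGGCCC in the Peg3 window, and the Ndn and Plagl1 windows held none of the motifs searched.
Meg3, chr12:109540746-109541045, plus strand: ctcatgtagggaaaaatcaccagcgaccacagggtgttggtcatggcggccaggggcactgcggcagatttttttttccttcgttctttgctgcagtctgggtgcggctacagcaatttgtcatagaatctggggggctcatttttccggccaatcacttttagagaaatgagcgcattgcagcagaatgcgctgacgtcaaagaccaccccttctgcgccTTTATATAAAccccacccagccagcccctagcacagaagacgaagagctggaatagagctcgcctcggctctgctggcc
Ndn, chr7:62348027-62348326, plus strand: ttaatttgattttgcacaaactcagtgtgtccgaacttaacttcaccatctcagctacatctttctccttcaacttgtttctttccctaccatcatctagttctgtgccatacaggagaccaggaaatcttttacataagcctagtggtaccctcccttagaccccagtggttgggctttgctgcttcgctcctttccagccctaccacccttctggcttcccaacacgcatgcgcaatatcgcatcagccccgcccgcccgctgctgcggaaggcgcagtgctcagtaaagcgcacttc
Plagl1, chr10:13090582-13090881, plus strand: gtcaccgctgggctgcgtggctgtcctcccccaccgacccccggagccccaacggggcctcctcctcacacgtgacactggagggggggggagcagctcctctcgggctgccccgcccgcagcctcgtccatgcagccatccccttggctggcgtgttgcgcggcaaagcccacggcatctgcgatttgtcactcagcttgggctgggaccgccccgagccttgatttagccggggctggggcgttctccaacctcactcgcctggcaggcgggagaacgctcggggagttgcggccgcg
Peg3, chr7:6730370-6730669, minus strand: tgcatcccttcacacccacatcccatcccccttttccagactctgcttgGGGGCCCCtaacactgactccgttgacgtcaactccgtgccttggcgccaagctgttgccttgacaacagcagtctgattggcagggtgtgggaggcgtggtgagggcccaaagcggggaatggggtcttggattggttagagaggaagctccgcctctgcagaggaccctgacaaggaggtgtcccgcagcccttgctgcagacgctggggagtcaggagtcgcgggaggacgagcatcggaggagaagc

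The motifs searched on both strands were GGGGCCC (the core of the Plagl1 motif), CCATNTT (YY1) and TATAAA (the TATA box), which 6.66%, 16.1% and 13.6% of the 32851 promoters of the table held. In the Meg3 window TATAAA was found 2 times, once on each strand and overlapping. In the Peg3 window GGGGCCC was found 2 times, again overlapping on opposite strands, and the upstream of the Mest windows held it once. No CCATNTT was in any member's window, which says only that these letters are not there. CpG dinucleotides, the sites of methylation, numbered 26 in the Plagl1 window, 13 in the Meg3 and Peg3 windows printed, 11 in the Ndn window and 0 in the Rian window, against a median of 7.0 over all promoters.

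Small RNA genes inside the noncoding members have rows of their own in the table. The libraries were made from polyA RNA, so reads in those rows come from longer transcripts and do not measure mature miRNAs. Mature sequences (RefSeq, GRCm38.p6) are shown for the miRNAs of H19 and Meg3 whose rows drew the most reads of any miRNA row inside a member, with the seed (bases 2 to 8) in capitals. The 3 seeds differ from each other, and miR-1906 is also encoded at another locus, so reads of its row are uncertain.
miR-675-5p, inside H19, chr7:142577112-142577133, minus strand: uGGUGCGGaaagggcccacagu
miR-675-3p, inside H19, chr7:142577078-142577099, minus strand: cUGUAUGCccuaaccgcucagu
miR-1906, inside Meg3, chr12:109544588-109544609, plus strand: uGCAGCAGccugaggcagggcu

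The libraries held between 19130209 and 23029089 counts, at which 3 counts correspond to 0.127 to 0.161 CPM (reads of a gene scaled to the size of its library, with TMM factors of 0.944 to 1.046). Log2 CPM of the 2 INK128 libraries had a Pearson correlation of 0.98 across the 11758 genes with a mean CPM above 10, and those of the 2 controls 0.806. The share of these genes that lay more than 2-fold apart was 1% between the INK128 libraries and 13.8% between the controls. Control replicate 1, 1 of the 2 control libraries, went against the stated female source of the donor cells. It held 1021 reads of 4 Y-linked genes, against 2, 0 and 0 in the other libraries, and the summed level of 8 Sertoli cell markers was 1140 CPM in it and 70.8 to 131 CPM elsewhere. Control replicate 3 had the least oocyte RNA, with 30.6 CPM summed over 12 oocyte markers against 882 to 1270 CPM elsewhere, and the most steroidogenic RNA, with 10800 CPM summed over 7 markers against 929 to 5220 CPM. Granulosa cell markers were present in every library, with 4010 to 9210 CPM summed over 12 genes. Single markers differed in their range, with Foxl2 at 146 to 371 CPM and Amh at 5.1 to 435 CPM, the highest Amh value being in control replicate 1. Which cells the sum came from was not tested.

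Ndn, Plagl1, H19 and Peg10 had the smallest p-values of the members, and they did not differ in 1 direction. Ndn averaged 208 ± 1.02 CPM (SD, n = 2) in the INK128-treated rOvaries and 81.7 ± 21.9 CPM in controls. By contrast, H19 averaged 10.9 ± 1.01 against 25.9 ± 11 CPM, Plagl1 27 ± 1.96 against 61.8 ± 21.2 CPM and Peg10 96.3 ± 8.92 against 272 ± 160 CPM. None of the 9 members with a mean CPM above 10 was a differentially expressed gene (DEG) in edgeR's quasi-likelihood test, where a call needed both a Benjamini-Hochberg adjusted p under 0.05 and more than 1.5-fold difference. Of all 11758 genes tested, 3.18% were called higher and 3.19% lower with INK128. At an unadjusted p below 0.05 there were 5 members, 2 higher and 3 lower (55.6% of the 9, against 36.4% of all genes). DESeq2 called 1 member higher (Ndn) and 3 lower (H19, Plagl1 and Peg10), against a background of 13.6% of genes called higher and 15.1% lower, and limma voom called 0 members and 0 genes. Both INK128 libraries lay above both controls for 3 of the 9 and below both for 5, while the same held for 34.5% and 34% of all tested genes. For a single gene, 2 libraries against 2 allow a smallest two-sided p of 0.333 in an exact permutation test, and the p-values given are therefore those of fits over the whole table. Calls were far more common in edgeR when a control was left out, with 22.7% of the 11758 genes higher and 23.2% lower without control replicate 1 and 21.2% higher and 21.4% lower without control replicate 3, and 0 without either INK128 library. The calls of single members under those settings, given with each gene, are to be read against these shares. A fit with 1 library left in a group takes the spread between replicates from the other group alone. Its p-values without a control thus leave out the spread between the controls.

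**Figure D1:**
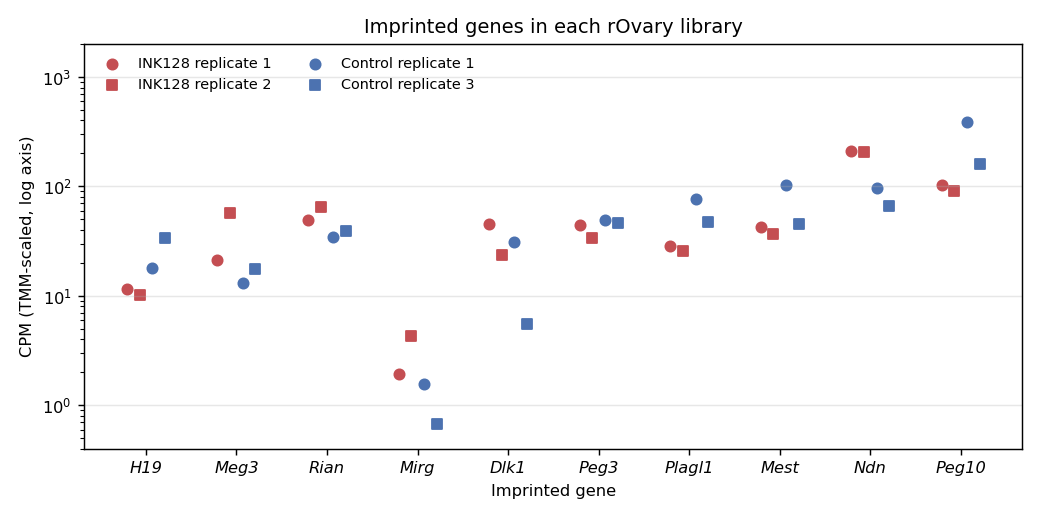
CPM of each of the 10 imprinted genes (log axis) in INK128 replicates 1 and 2 (red) and control replicates 1 and 3 (blue), 1 point a library. The groups are apart for 9 genes and overlap for Dlk1, and the 2 control points of Mirg, Dlk1, Mest and Peg10 are more than 2-fold apart.

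The size of the differences depended on the libraries used. With all 4, the fold change exceeded 1.5 in either direction for 8 of the 9 tested members and for 45.3% of all tested genes, and the median absolute log2 fold change was 1.19 against 0.52. Without control replicate 1 these were 6 of the 9 against 48.5% of all genes, and 0.79 against 0.56. With any other library left out, 6 or 7 of the 9 exceeded 1.5-fold and the median was 1.10 to 1.28. The median signed log2 fold change was −0.29 for the 9 members and −0.03 for all genes. It was 0.62 for the 3 tested maternally expressed members and −0.59 for the 6 paternally expressed ones, but both classes held genes of either direction, with H19 lower among the former and Ndn and Dlk1 higher among the latter. The medians of both classes moved by over 1.5 times with single libraries, the paternal one to −0.22 without control replicate 1 and the maternal one to 0.41 without INK128 replicate 2. Longer genes tended to lower values with INK128 across the tested genes (Spearman rho −0.464 of the log2 fold change with exon length, across genes, which are not independent replicates). With offsets for exon length fitted in each library, the medians were 1.36 for the maternally expressed members, −0.29 for the paternally expressed ones and −0.04 for all genes, and edgeR called 0 genes.

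H19 is a noncoding RNA of chromosome 7 (142575529 to 142578143, minus strand) that is read from the maternal chromosome, next to the growth factor gene Igf2 that is read from the paternal one. Its levels were 11.6 and 10.2 CPM in the INK128 libraries and 18.1 and 33.7 CPM in controls. The groups did not overlap, and the spread lay in the controls, where replicate 3 had 1.86 times the level of replicate 1. This gave a log2 fold change of −1.25 (SE 0.38, adjusted p = 0.0959 in edgeR), and DESeq2 called H19 lower (−1.26, adjusted p = 0.0297). It was −0.74 without control replicate 3 (adjusted p = 0.0437, edgeR) and −1.63 without control replicate 1 (adjusted p = 0.000404, edgeR), both called with 1 control left, and −1.16 to −1.36 without either INK128 library, not called. The summed level of 15 kidney markers followed a like order, with 93.3 and 169 CPM with INK128 and 713 and 1460 CPM in controls. Of the 15, 13 were lower in both INK128 libraries than in both controls and 1 was higher in both, beside 34% and 34.5% of all tested genes. The sum of 12 immune markers was 437 and 395 CPM with INK128 and 851 and 1250 CPM in controls. No kidney or immune marker was at 0 in all 4 libraries, although Slc12a1 of the kidney was at 0 in INK128 replicate 2. Their part in the H19 values was not tested.

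Within the exons of H19 lie 3 small genes with rows of their own, Mir675, Gm27483 and Gm27786, to which some of its reads may have been assigned. Mir675, the gene of miR-675 shown above, had 21 and 8 reads with INK128 and 48 and 90 in controls. Adding the 3 rows to H19 gave 15.5 and 12.6 CPM against 25.1 and 48.5 CPM, a log2 fold change of −1.39 (SE 0.39, adjusted p = 0.0821 in edgeR). Igf2, the paternally expressed partner 72.6 kb from H19 and a ligand of the type 1 insulin-like growth factor receptor, stood at 30.4 and 29.6 CPM with INK128 and 65.6 and 32.6 CPM in controls. Its groups did not overlap, but control replicate 3 lay close to the INK128 libraries (log2 fold change −0.71, adjusted p = 0.237 in edgeR). The ratio of Igf2 to H19 reads was 2.62 and 2.91 with INK128 and 3.62 and 0.967 in controls, so it overlapped between the groups.

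The tested non-member genes whose pattern over the 4 libraries lay nearest to that of H19 were Ptpn6 (a phosphatase of blood cells), Socs3 (an inhibitor of cytokine signalling) and Cyb5d1, at Euclidean distances of 0.035, 0.044 and 0.062 between centred log2 CPM profiles. Socs3, for example, had 17.7 and 15.5 CPM with INK128 and 27.5 and 49.1 CPM in controls. With 4 libraries many genes can lie this near.

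On chromosome 12 the 3 maternally expressed RNAs Meg3, Rian and Mirg each lay higher in both INK128 libraries than in both controls, and none passed the test in edgeR or DESeq2. Meg3 (109541001 to 109571726, plus strand) is a long noncoding RNA known as a growth suppressor. It was measured at 21.2 and 56.6 CPM with INK128 and 13.1 and 17.7 CPM in controls. INK128 replicate 2 was 2.67 times replicate 1, and Mirg was the only other member whose INK128 libraries differed by more than 2-fold. The log2 fold change of Meg3 was 1.34 (SE 0.53, adjusted p = 0.146 in edgeR), and it was 0.45 without INK128 replicate 2 (adjusted p = 0.683, edgeR). Without control replicate 1 it was 1.14 and without control replicate 3 it was 1.57, both called in edgeR (adjusted p = 0.0489 and 0.0142). Exon length offsets moved it to 2.09 (adjusted p = 0.113, edgeR).

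Rian (109603940 to 109661716, plus strand) begins 32.2 kb after the end of Meg3 and hosts snoRNAs and miRNAs. Its levels were 49.3 and 64.2 CPM with INK128 and 34.5 and 39.3 CPM in controls. All 4 values lay within a narrower range than those of Meg3. The edgeR fit gave 0.62 on the log2 scale (SE 0.22, adjusted p = 0.121), 1.36 with exon length offsets (adjusted p = 0.083, edgeR) and 0.72 without control replicate 3, where it was called (adjusted p = 0.0187, edgeR). It was not called in the other fits with 1 library left out, at 0.53 without control replicate 1 (adjusted p = 0.0582, edgeR) and 0.79 and 0.41 without INK128 replicates 1 and 2 (adjusted p = 0.3997 and 0.617, edgeR). Of the 13 snoRNA rows inside Rian, 9 had any reads, 118 in all, and 1 of 4 miRNA rows had a single read.

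Mirg (109729764 to 109749460, plus strand), host of a large miRNA cluster 68.0 kb beyond Rian, had the fewest reads of all members, with 36, 93, 35 and 16 reads in INK128 replicates 1 and 2 and control replicates 1 and 3. Those reads correspond to 1.93 and 4.28 CPM with INK128 and to 1.55 and 0.675 CPM in controls. INK128 replicate 1 and control replicate 1 were within a few reads of each other. Mirg was therefore fitted with the 17631 genes that averaged more than 1 CPM, and its value there was 1.53 on the log2 scale (SE 0.73, adjusted p = 0.216 in edgeR). In that fit edgeR called 0 genes, 0% of those tested, although 5797 genes had an unadjusted p below 0.05. Without control replicate 1 the value was 2.25 and was called higher (adjusted p = 0.0123, edgeR), as were 21.6% of the 17631 genes. It was 1.06 without control replicate 3 (adjusted p = 0.163, edgeR), and 1.97 and 0.83 without INK128 replicates 1 and 2 (adjusted p = 0.478 and 0.762, edgeR), none of them called. Of 15 miRNA rows inside Mirg, 5 had reads, 28 in all, which is too few for a comparison.

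Dlk1 (109452823 to 109463336, plus strand), the paternally expressed protein gene of the same cluster, encodes a transmembrane protein of the Notch ligand family that holds back fat cell differentiation. It was at 45.7 and 23.5 CPM with INK128 and 31.3 and 5.52 CPM in controls. The groups overlapped, and control replicate 3 lay far below the other 3 libraries. With an SE of 0.86, the log2 fold change of 0.91 did not pass the test (adjusted p = 0.474 in edgeR). It was 2.64 without control replicate 1, where it was called with 1 control left (adjusted p = 0.000394, edgeR), and 0.14 without control replicate 3. Control replicate 3 was also the library with the lowest sum of 12 oocyte markers (30.6 CPM) and the highest sum of 7 steroidogenic markers (10800 CPM), and the part of these in the Dlk1 values was not tested.

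**Figure D2:**
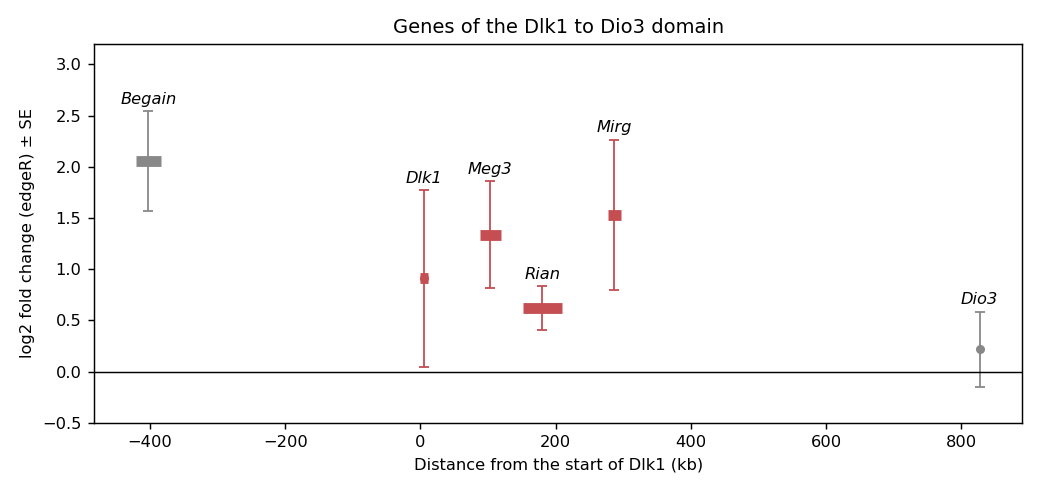
Log2 fold change (edgeR, INK128 against control, with SE bars) of the genes around Dlk1 against their distance from the start of Dlk1 in kb, with each gene's extent as a thick bar, members in red and neighbours in grey. Begain and Mirg come from the fit of 17631 genes, and the members lie between 0.62 and 1.53.

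The members of the cluster did not keep a fixed ratio among libraries. Meg3 reads per Dlk1 read were 0.464 and 2.41 with INK128 and 0.419 and 3.2 in controls, so that replicate 1 of each group had the low ratio. Rian reads per Meg3 read were 2.32 and 1.13 with INK128 and 2.63 and 2.23 in controls, and Mirg reads per Meg3 read were 0.0911 and 0.0755 with INK128 and 0.118 and 0.0382 in controls. The neighbour Begain, measured at 9.61 and 11.1 CPM with INK128 and 1.68 and 3.46 CPM in controls, differed by 2.06 on the log2 scale (adjusted p = 0.0728 in edgeR over 17631 genes). Dio3, which encodes an enzyme that inactivates thyroid hormone at the far end of the cluster, had 0.22 (adjusted p = 0.685, edgeR) and −0.29 with exon length offsets. It was measured at 11.4 and 10.3 CPM against 6.95 and 11.6 CPM. Rtl1, between Meg3 and Rian on the opposite strand, had 0.177 to 0.717 CPM and was not tested.

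The genes nearest to Meg3 in pattern were Egfl7, Fbxl18 and Atf4, at distances of 0.434, 0.444 and 0.478. Atf4, a transcription factor of the amino acid response, had 205 and 345 CPM with INK128 and 110 and 127 CPM in controls. Each of these distances is larger than those of the 3 genes nearest to H19.

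Among the transcription factors, Plagl1 was lower and Peg3 nearly level. Plagl1 (chromosome 10, 13060504 to 13131694, plus strand) encodes a zinc finger factor that can halt the cell cycle. It was at 28.4 and 25.6 CPM with INK128 and 76.8 and 46.8 CPM in controls. Both INK128 libraries lay well below the lower control. In edgeR the log2 fold change of Plagl1 was −1.19 (SE 0.30, adjusted p = 0.0687), and DESeq2 called it lower (−1.20, adjusted p = 0.00645). In edgeR the value was −0.79 without control replicate 1 (adjusted p = 0.00706) and −1.51 without control replicate 3 (adjusted p = 9.05e-05), both called, and −1.13 to −1.28 without either INK128 library, not called.

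Peg3 (chromosome 7, 6703892 to 6730431, minus strand), a large zinc finger protein expressed in mesenchyme and brain, had 44.4 and 33.4 CPM with INK128 and 49.1 and 46.2 CPM in controls. The lower control and the higher INK128 library were almost level. The log2 fold change was −0.29 (SE 0.22, adjusted p = 0.376 in edgeR) and turned to 0.29 with exon length offsets (adjusted p = 0.441, edgeR). It was −0.52 and −0.11 without INK128 replicates 1 and 2, and −0.25 and −0.33 without control replicates 1 and 3. Its neighbours Usp29 (0.337 to 1.38 CPM) and Zim1 (1.42 to 2.91 CPM) had few reads. In the edgeR fit of 17631 genes their log2 fold changes were 0.81 (SE 0.83, adjusted p = 0.519) and 0.16 (SE 0.60, adjusted p = 0.869).

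Mest (chromosome 6, 30723547 to 30748465, plus strand) encodes an enzyme of the alpha/beta hydrolase fold that is used as a mark of fetal mesoderm. It was at 42.8 and 36.7 CPM with INK128 and 103 and 45.1 CPM in controls. Control replicate 3 lay next to the INK128 libraries, and control replicate 1 was alone. The log2 fold change was −0.90 (SE 0.43, adjusted p = 0.201 in edgeR), but −0.18 without control replicate 1 (adjusted p = 0.458, edgeR) and −1.37 without control replicate 3, where it was called (adjusted p = 0.000147, edgeR). Mest overlaps Copg2 by 912 bases on the opposite strand, and since the kit is not stated to mark strand, reads there cannot be told apart. Copg2 had 76.3 and 63.8 CPM with INK128 and 111 and 76.0 CPM in controls (log2 fold change −0.42, adjusted p = 0.288 in edgeR), and Mest reads per Copg2 read were 0.56 and 0.575 against 0.922 and 0.593.

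Peg10 (chromosome 6, 4747306 to 4760517, plus strand), a protein derived from a retrotransposon and needed for the placenta, had the highest control level per kb of exon. Its CPM were 103 and 90 with INK128 and 385 and 159 in controls. The groups did not overlap, and control replicate 1 was more than 2-fold above control replicate 3. Peg10 had a log2 fold change of −1.496 (SE 0.46, adjusted p = 0.0964 in edgeR), and DESeq2 called it lower (adjusted p = 0.00739). In edgeR it was −0.72 without control replicate 1 (adjusted p = 0.00786) and −1.998 without control replicate 3 (adjusted p = 1.17e-05), both called, and −1.42 to −1.61 without either INK128 library, not called.

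Sgce, a sarcoglycan gene whose start lies 99 bases from that of Peg10 on the opposite strand and which is also expressed from the paternal chromosome, was higher in both INK128 libraries. It had 99.6 and 110 CPM with INK128 and 56.0 and 65.2 CPM in controls (log2 fold change 0.79, adjusted p = 0.0597 in edgeR, and called higher by DESeq2). Peg10 reads per Sgce read were 1.03 and 0.815 with INK128 and 6.86 and 2.43 in controls. The ratio was thus close to 1 in both INK128 libraries and above 2 in both controls, a difference in mean log2 ratio of −2.16. This difference does not depend on the scaling of the libraries. Its size rests in part on control replicate 1, where the ratio was 6.86 against 2.43 in control replicate 3. Ppp1r9a, further along the same cluster, had 37.0 and 53.1 CPM against 107 and 94.9 CPM (−1.16, adjusted p = 0.0548 in edgeR), while Asb4 had 2.30 to 4.89 CPM and Calcr at most 0.0843 CPM. With exon length offsets the values of Ppp1r9a and Sgce were −0.53 and 1.28 (adjusted p = 0.276 and 0.0739, edgeR).

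**Figure D3:**
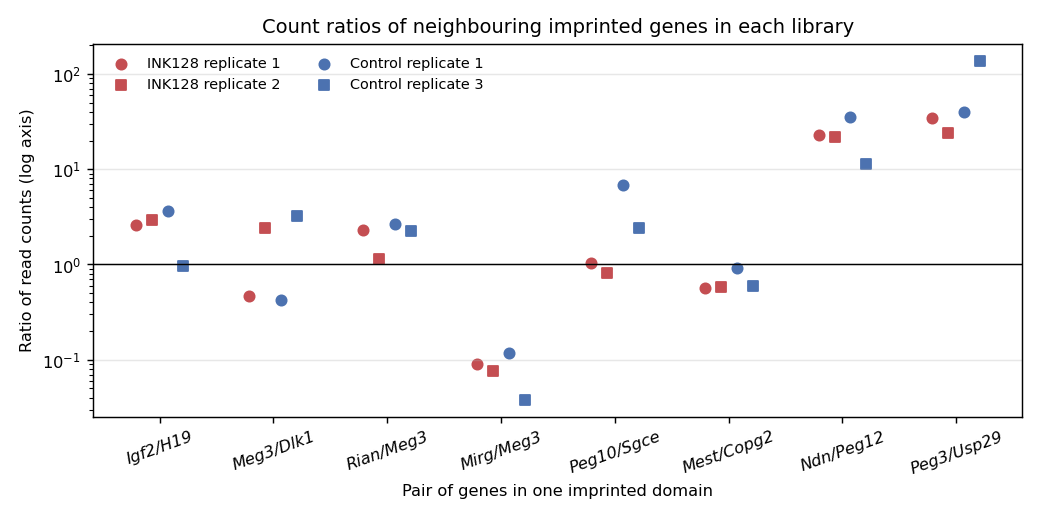
Ratio of the read counts of 2 genes of the same imprinted domain, at least 1 of them a member (log axis), 1 point a library, for 8 pairs. Peg10/Sgce lies between 0.815 and 1.03 in the INK128 libraries (red) and at 6.86 and 2.43 in the controls (blue), and most other pairs overlap between the groups.

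Control replicate 1 was the highest library for Peg3, Plagl1, Mest and Peg10, 4 of the 6 paternally expressed members. It is also the library with the Y-linked reads and with the raised Sertoli cell markers, among them Sox9 at 148 CPM (4.43 to 6.21 CPM elsewhere) and Dmrt1 at 30.5 CPM (at most 0.138 CPM elsewhere). Without this library the log2 fold changes were −0.25 for Peg3, −0.79 for Plagl1, −0.18 for Mest and −0.72 for Peg10, and edgeR called Plagl1 and Peg10 lower, beside 23.2% of all tested genes. The part of these cells in the 4 genes was not tested.

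Ndn (chromosome 7, 62346569 to 62350262, plus strand) encodes necdin, a MAGE family protein that restrains the cell cycle in neurons and muscle precursors. It was the member nearest to the threshold and the one whose INK128 libraries differed least, at 209 and 207 CPM, against 97.2 and 66.2 CPM in controls. Each INK128 library had more than 2 times the higher control. The log2 fold change was 1.35 (SE 0.25, adjusted p = 0.0507 in edgeR), just outside the threshold of 0.05, where adjusted p-values were closely packed, with those of the DEGs all between 0.0464 and 0.05 and 13.8% of all tested genes below 0.06. DESeq2 called Ndn higher (1.34, adjusted p = 5.26e-05), and with exon length offsets it was 1.22 (adjusted p = 0.0884, edgeR). In edgeR it was 1.65 without control replicate 1 (adjusted p = 0.000112) and 1.10 without control replicate 3 (adjusted p = 0.00103), both called, and 1.33 and 1.34 without either INK128 library, not called.

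The sum of 12 muscle markers differed between the groups in the same direction as Ndn, at 5370 and 5440 CPM with INK128 and 729 and 1520 CPM in controls. Of the 12, 7 were higher in both INK128 libraries than in both controls, beside 34.5% of all tested genes. Among these 7, Myh3 had at most 0.215 CPM. Acta1 of skeletal muscle and Tnni1 of slow muscle fibres, 2 of the 12, were lower in both, beside 34% of all tested genes. Acta2, smooth muscle actin and the largest part of the sum, had 2560 and 2390 against 308 and 612 CPM, while Myog and Myod1, which define skeletal muscle precursors, were at 0 in all 4 libraries. The sum of 10 stroma markers was also higher in both INK128 libraries, at 12700 and 10800 CPM against 9570 and 9750 CPM. Of the 10, 4 were higher in both INK128 libraries and 1 was lower in both, beside 34.5% and 34% of all tested genes. In edgeR 1 was called higher, Nr2f2, beside 3.18% of all tested genes. The part of muscle or stroma cells in the Ndn values was not tested.

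The other genes of the Ndn domain had lower CPM than Ndn in every library, apart from Ube3a in the 2 controls. Peg12, 112 kb from Ndn, had 9.18 and 9.43 CPM with INK128 and 2.74 and 5.86 CPM in controls (log2 fold change 1.16, adjusted p = 0.172 in edgeR among 17631 genes). Mkrn3 had 2.20 and 3.45 against 0.664 and 1.81 CPM, and Magel2 had at most 0.322 CPM. Snrpn, a splicing protein gene, had 15.4 to 21.9 CPM with overlapping groups, and Snurf had 4.55 to 7.04 CPM. Ube3a, a ubiquitin ligase that is imprinted in neurons, had 77.2 and 75.9 CPM with INK128 and 120 and 157 CPM in controls, which is −0.85 on the log2 scale (adjusted p = 0.0629, edgeR) and −0.05 with exon length offsets (adjusted p = 0.862, edgeR).

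**Figure D4:**
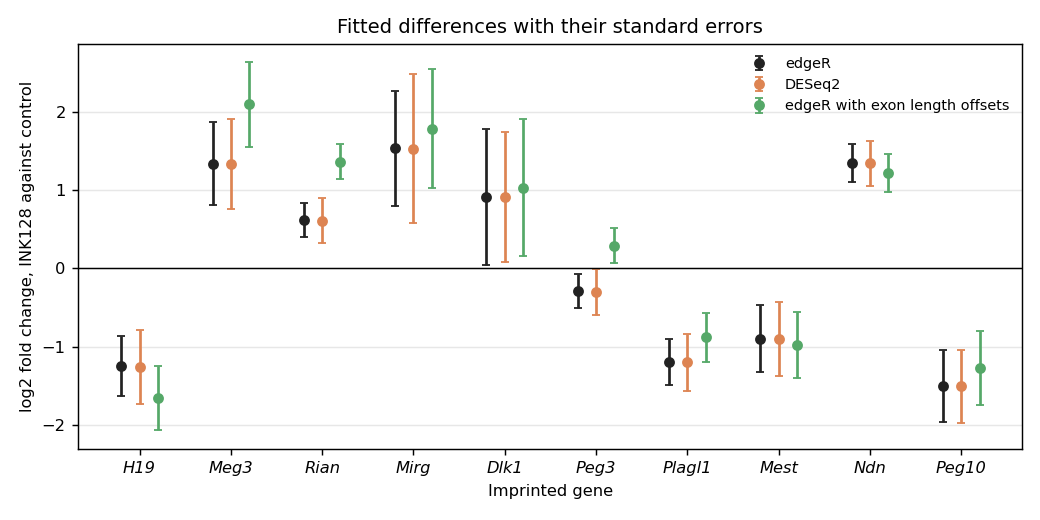
Log2 fold change of the 10 genes, INK128 against control, with SE bars, from edgeR (black), DESeq2 (orange) and edgeR with exon length offsets (green). The 3 fits give the same sign for 9 genes, and Peg3 turns from −0.29 to 0.29 with the offsets.

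Every member other than Peg3 kept its sign when any 1 library was left out and under the other settings tried, and so did Peg3 apart from the length offsets. When single libraries were left out, the log2 fold change of Dlk1 ran from 0.14 to 2.64, that of Mirg from 0.83 to 2.25 and that of Meg3 from 0.45 to 1.87. Ndn moved least among the members with a log2 fold change beyond 1, from 1.10 to 1.65.

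**Figure D5:**
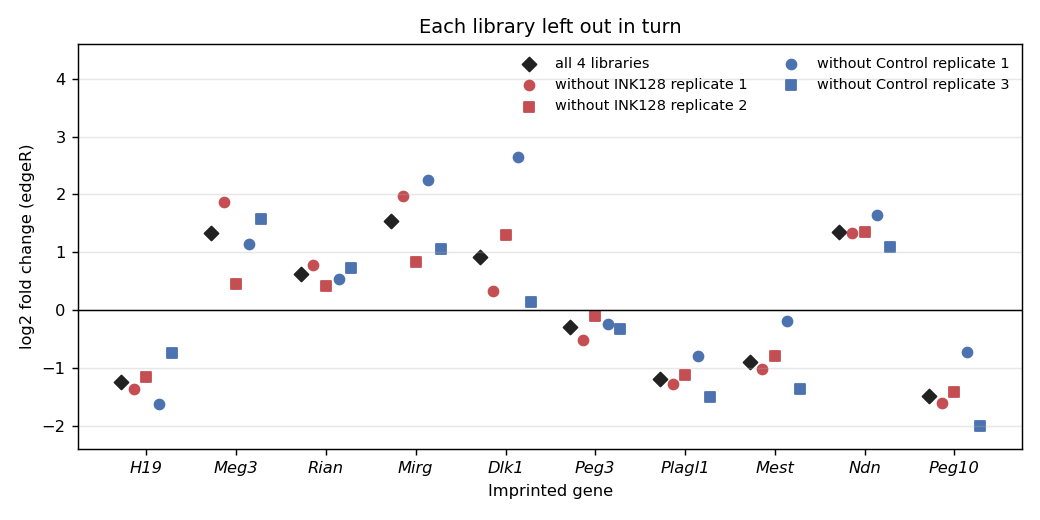
Log2 fold change (edgeR) of each gene with all 4 libraries (black) and with each INK128 library (red) or control library (blue) left out. Ndn stays between 1.10 and 1.65, whereas Dlk1 ranges from 0.14 to 2.64 and Mest from −1.37 to −0.18.

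Levels can be compared between the members only per length. As CPM per kb of exon, averaged over the 4 libraries, Ndn was highest at 39.2, followed by Peg10 at 27.6, Mest at 14.4, H19 at 7.47, Plagl1 at 5.68 and Dlk1 at 4.68, and then Peg3 at 3.25, Rian at 2.57, Meg3 at 1.5 and Mirg at 0.289. The first 3 and the last 2 places stood also when the longest transcript was used as the length, while H19 and Plagl1, and Rian, Dlk1 and Peg3, changed places. In the order by exon length, Ndn was above Peg10 in both INK128 libraries (56.5 and 56.1 against 15.4 and 13.5 CPM per kb) and below it in both controls (26.3 and 17.9 against 57.7 and 23.8). Neighbours such as H19 and Plagl1, at 4.13 to 13.7 and 3.28 to 9.82 CPM per kb, overlapped across libraries.

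Beyond the members, a list of 52 other imprinted genes had 49 in the table and 26 with a mean CPM above 10. Of these 26, edgeR called 2 higher and 1 lower, against 3.18% and 3.19% of all tested genes. DESeq2 called 6 higher (Sgce, Nnat, Tssc4, Cdkn1c, Blcap and Commd1) and 5 lower (Ube3a, Ppp1r9a, Slc22a18, Gatm and Peg13), against 13.6% and 15.1% of all tested genes, and of these Cdkn1c, Blcap, Commd1, Gatm and Peg13 are named after their values were seen. Cdkn1c, an inhibitor of the cell cycle and of growth, had 54.6 and 67.4 CPM with INK128 and 17.0 and 25.3 CPM in controls (log2 fold change 1.53, adjusted p = 0.0507 in edgeR and 0.000214 in DESeq2). The median of the 26 genes' log2 fold changes was 0.21. Nnat, a small proteolipid of the endoplasmic reticulum, was upregulated, with 47.9 and 54.8 CPM against 20.1 and 13.2 CPM (1.62, adjusted p = 0.0487 in edgeR). Tssc4, of the Kcnq1 cluster, was upregulated by 1.44 on the log2 scale (58.2 and 58.9 against 23.6 and 19.5 CPM, adjusted p = 0.0464 in edgeR). Slc22a18, a transporter gene of the same cluster that is expressed in kidney, was downregulated (−3.21, adjusted p = 0.0464 in edgeR). It had 1.93 and 3.73 CPM with INK128 and 21.4 and 31.3 CPM in controls. Of the 15 kidney markers above, 13 were also lower in both INK128 libraries, and 1, Nphs1, was higher in both. The part of kidney cells in the Slc22a18 values was not tested. With exon length offsets, where edgeR called 0 genes, the values were 1.08 for Nnat, 0.90 for Tssc4, 1.02 for Cdkn1c and −3.83 for Slc22a18, and the median of the 26 was 0.07. The 3 with the highest level, Dcn, Gnas and Cd81, had values of 0.27, 0.33 and 0.47, or 0.42, 0.82 and 0.18 with the offsets, and were not called.

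Of the genes that keep or set imprints, 12 of 14 were tested, and edgeR called 0, with a median of −0.19 that turned to 0.25 with exon length offsets. DESeq2 called 0 higher and 2 lower, beside 15.1% of all tested genes called lower. The 2 are Dnmt3a and Zfp445, named here after their values were seen. With the offsets the edgeR value of Dnmt3a went from −0.74 to −0.04 and that of Zfp445 from −0.94 to −0.64. Trim28, a cofactor of the zinc finger repressors that protect imprints, had 364 and 364 CPM with INK128 and 324 and 234 CPM in controls (0.38), the maintenance methyltransferase Dnmt1 had 202 and 151 against 230 and 83.6 CPM (0.17), and Yy1 had 120 and 110 against 150 and 136 CPM (−0.32), values that were 0.33, 0.44 and −0.11 with the offsets. Of 10 further fetal growth genes 5 were tested, and edgeR called 0 (DESeq2 0 higher and 1 lower, Insr), with a median of −0.02 that turned to 0.32 with the offsets. Igf1, the highest of them, had 405 and 351 CPM against 531 and 172 CPM, so its groups overlapped, and the receptor genes Igf1r and Insr had log2 fold changes of −0.37 and −0.79 (adjusted p = 0.179 and 0.0974 in edgeR), which were 0.32 and −0.18 with exon length offsets.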

How the data were processed

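RNA-seq of 4 rOvary libraries was analysed. Per the labels and the study's methods, the authors made NEBNext Ultra libraries from polyA RNA, used Trimmomatic for trimming, HISAT2 for alignment (mm10) and featureCounts for counting by gene symbol; tool versions are not given in the sources used here. The deposited values are raw counts without normalization, and no replicates were pooled. The kit is not stated to mark strand. Each column was matched to its library by name, with 0 columns unmatched. Of the 54021 symbols, 53447 matched GENCODE M21, which gave positions and exon lengths. The methods name RefGene as the annotation used for counting, with no version, so the CPM per kb, the length offsets and the overlaps with small genes rest on gene models that may differ from those counted.

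The counts were fitted with edgeR 4.0.16 in R 4.3.3 (quasi-likelihood F-test, TMM factors from the tested genes, no covariates) on the 11758 genes averaging more than 10 CPM, with Benjamini-Hochberg adjustment over all of them. A call needed an adjusted p under 0.05 and more than 1.5-fold difference. Mirg and other genes below the filter were fitted with the 17631 genes averaging more than 1 CPM. DESeq2 1.42.0, the test of the study's methods, and limma 3.58.1 (voom) were alternatives, besides other normalizations and filters, exon length offsets (a per-library loess of log2 CPM deviations on log2 exon length) and leaving out each library. TMM over all counted genes, and H19 with the rows inside it, were added after the data were seen. Each SE is the absolute log2 fold change over the square root of F. The scripts were tested on simulated data. Floors of 3 counts cover counting error only.

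Named genes were all 10 members and, from each further list, genes called by edgeR, genes of a member's domain and the 3 with the highest mean CPM, besides the 3 genes nearest in pattern to H19 and to Meg3; Ppp1r9a and Ube3a fall under the domain rule. Marker genes named singly were chosen after their values were seen. The rule for the members uses no measured value, but the members and lists were chosen with earlier results of these data known.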

Additional observations from a re-analysis of the deposited data

How the results depend on the processing

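Of 166 values of single members under other settings, 165 kept their direction, and Peg3 turned to 0.29 with exon length offsets. Most of these settings refit the same 4 libraries, and some leave the fit of a member as it was. Many of the values could thus hardly change direction, and their count does not measure replication. The median of the 9 tested members, −0.29, moved to 0.29 with the offsets, and from −0.52 (without INK128 replicate 1) to −0.11 (without INK128 replicate 2) when 1 library was left out. Scaling by library totals moved the median of all genes from −0.03 to −0.15, and no member changed direction with it. For members called higher, 0 in edgeR, the count was 1 at an adjusted p below 0.1, with at least 1 count, with CPM above 10 in all 4 libraries, with DESeq2, with TMM over all counted genes and with upper quartile factors (Ndn in each), and 0 to 3 when 1 library was left out. For members called lower, also 0, the counts were 3, 2, 1 and 3 under the first 4 of these settings in that order, and 0 to 4 when 1 library was left out. The highest of these counts came without a control, where 21.2% to 22.7% of all genes were called higher and 21.4% to 23.2% lower.

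Of other imprinted genes, 2 were called higher and 1 lower. The counts were 6 and 5 at an adjusted p below 0.1, 6 and 5 with at least 1 count, 4 and 3 with CPM above 10 in all 4 libraries, 6 and 5 with DESeq2, and 1 and 2 with library totals. With TMM over all counted genes and with upper quartile factors 4 were called higher. With exon length offsets, limma voom or a mean CPM above 1 the counts were 0 and 0, and leaving out 1 library gave 0 to 9 in each direction.

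Over all genes, 374 were called higher and 375 lower. The counts were 1540 and 1591 at an adjusted p below 0.1, 1152 and 1953 with at least 1 count, 803 and 717 with CPM above 10 in all 4 libraries, 1595 and 1772 with DESeq2, and 0 and 0 with exon length offsets, limma voom or a mean CPM above 1. Upper quartile factors gave 567 higher and library totals 580 lower. Leaving out 1 library gave 0 to 2664 higher and 0 to 2723 lower. Without an INK128 library the spread between replicates comes from the controls alone, and without a control it comes from the INK128 libraries alone. Of the tested genes, 13.8% were more than 2-fold apart between the controls and 1% between the INK128 libraries. Counts of these left-out fits therefore cannot be compared with each other or with those of all 4 libraries.

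No paired analysis was possible because the groups share only replicate number 1. A library left alone in its group is assumed to vary like the other group. At 16 to 93 reads, depth limits what can be said of Mirg, and having 2 libraries a group limits all members.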
